A study of Mus musculus with 16 samples.

Results

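Old and young subcutaneous white fat from mice whose adipocytes lack Nampt (adipocyte-specific Nampt knockout, ANKO) was compared across all genes, with 5 libraries from old ANKO mice set against 3 from young ANKO mice. The libraries were chosen by their labels alone, without any measured value, and are 8 of the 16 in the series. The mice were C57BL/6J on regular chow at room temperature, female by the title of the series, and the ANKO genotype combined an adiponectin-Cre transgene with floxed Nampt. The young group was 2 months of age and the old group 22 to 27 months. The other 8 libraries, 3 young and 5 old, came from flox/flox control mice of the same ages, and give the same ageing comparison in fat without the knockout. Total RNA of the depot was sequenced after removal of ribosomal RNA. Cre under the adiponectin promoter acts in adipocytes, so other cells of the depot keep Nampt, and each library mixes the RNA of all of them. In such bulk RNA, fewer cells of a type and less RNA per cell cannot be told apart. The labels do not say that each library is a separate animal, so the p-values measure the spread between these libraries, which may be technical.

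NAMPT makes nicotinamide mononucleotide from nicotinamide, the rate-limiting step of the salvage route to NAD, which dehydrogenases of energy metabolism reduce and which sirtuins and poly(ADP-ribose) polymerases consume. White adipocytes take up glucose and fatty acids, make fatty acids from citrate under the transcription factors SREBP-1c and ChREBP, store them as triglyceride and release them by lipolysis. PPARγ and C/EBPα maintain the adipocyte programme, and ageing of subcutaneous fat is known for loss of fat mass and gain of immune cells.

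The files hold read counts per gene, 19367868 to 23858605 reads per ANKO library and 19277403 to 30779298 over all 16. Levels are given as CPM, the count of a gene per megaread of its library, scaled between libraries by the trimmed mean of M-values (TMM). CPM is not divided by gene length, so levels are compared between libraries and not between genes. The adipocyte marker list summed to 12460 to 17560 CPM in the young ANKO libraries and 2596 to 6001 CPM in the old ones, so adipocyte markers were present in every library. Skeletal muscle markers, from a tissue next to the depot, summed to 38286, 6671 and 340 CPM in young ANKO 1 to 3 and to 1173, 50817, 888, 1278 and 37578 CPM in old ANKO 1 to 5. The 3 ANKO libraries above 10000 CPM, called muscle-rich below, sit in both age groups. Counts are given below without these 3 where that moves them by more than 1.5 times. In control fat these markers summed to 12821, 3804 and 20230 CPM when young and 10843, 457, 330, 2260 and 90626 CPM when old. No control library was left out for its muscle RNA. Keratinocyte and hair follicle markers summed to 81, 231 and 78 CPM in the young and 94 to 236 CPM in the old ANKO libraries, highest in young ANKO 2 and old ANKO 1. B and plasma cell markers summed to 1193 to 1588 CPM in the young libraries and to 2619, 2421, 9057, 3561 and 2332 CPM in old ANKO 1 to 5. The part of these other cells in the changes described below was not tested, apart from the counts without the muscle-rich libraries.

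**Figure D1:**
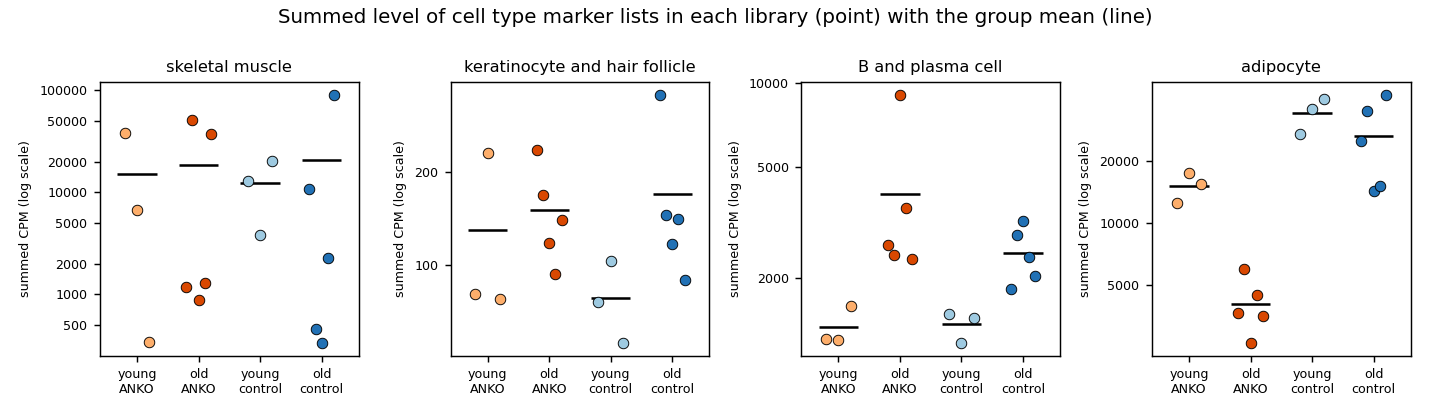
Summed level of 4 marker lists in each library (log axes, CPM), with one column per group, one point per library and a line at the group mean. Adipocyte sums of the old ANKO libraries (2596 to 6001 CPM) lie below those of the young ANKO ones (12460 to 17560 CPM), B and plasma cell sums lie above them, and skeletal muscle sums spread from 340 to 50817 CPM over the ANKO libraries.

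Nampt, the targeted gene, was at a like level in young and old ANKO fat. It measured 49.8, 51.7 and 48.7 CPM in young ANKO 1 to 3 and 47.6, 48.2, 52.0, 45.0 and 54.1 CPM in old ANKO 1 to 5, over the gene at chr12:32819545-32853349 (GRCm38). The ages overlapped, with a log2 fold change of −0.02 ± 0.15 (SE) and an adjusted p of 0.963 in edgeR's quasi-likelihood test. This fold is 0.11 when libraries are scaled by their totals, 0.01 without young ANKO 2 and 0.02 without old ANKO 4, so it has no direction. Control fat measured 86.3, 95.4 and 89.0 CPM when young and 61.2, 76.9, 47.2, 50.7 and 78.6 CPM when old. Every young control library was thus above every ANKO library, while old control 3 and 4 lay within the range of old ANKO. In control fat the log2 fold change of Nampt with age was −0.52 (adjusted p = 0.125), and the 2 folds differed by 0.50 with an adjusted p of 0.463. Genes are said to be called, or to have risen or fallen, where the edgeR p adjusted over all genes tested was under 0.05. Among 37 genes of NAD synthesis and use, 3 were called lower with age in ANKO fat, where 4.55% of all genes tested were: Nudt12, a peroxisomal hydrolase of NADH, with a log2 fold change of −1.45, Slc25a51, the carrier of NAD into mitochondria, with −0.91, and Nadk, the NAD kinase, with −0.56. The Nudt12 call was lost without young ANKO 2 (0.0776), that of Slc25a51 without young ANKO 2 (0.144) or 3 (0.0617), and that of Nadk without any 1 ANKO library (0.0674 to 0.246). The count was 0 without young ANKO 2, and 1 without young ANKO 3 or without the muscle-rich libraries. The median log2 fold change of the list was 0.01. Cd38, an NAD-consuming enzyme of immune cells, measured 26.2, 23.7 and 37.5 CPM in the young and 36.1, 32.6, 106, 57.5 and 46.5 CPM in the old libraries, with overlapping ages and an adjusted p of 0.185.

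More genes were called lower than higher with age in ANKO fat, and among the lower ones were most of the genes listed for making and storing fat. Of 21206 genes tested, 1345 (6.34%) were called at an adjusted p (Benjamini-Hochberg) under 0.05, 380 of them higher (1.79%) and 965 lower (4.55%) in old ANKO fat. Each count of list members called below is to be read beside these shares. At least a 2-fold difference was reached by 224 of the higher and 520 of the lower genes. The median log2 fold change over all genes tested was 0.05. When libraries were scaled by their totals, that median was 0.17 and the calls split into 539 higher and 761 lower. The number of calls fell to 336 without young ANKO 2 (67 higher), 678 without young ANKO 3 (118 higher), 875 without old ANKO 1 (217 higher) and 534 without the 3 muscle-rich libraries (78 higher). Calls of higher genes also fell to 187 without young ANKO 1 and 220 without old ANKO 5. A total of 319 genes stayed called whichever ANKO library was left out, 267 lower and 52 higher.

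**Figure D2:**
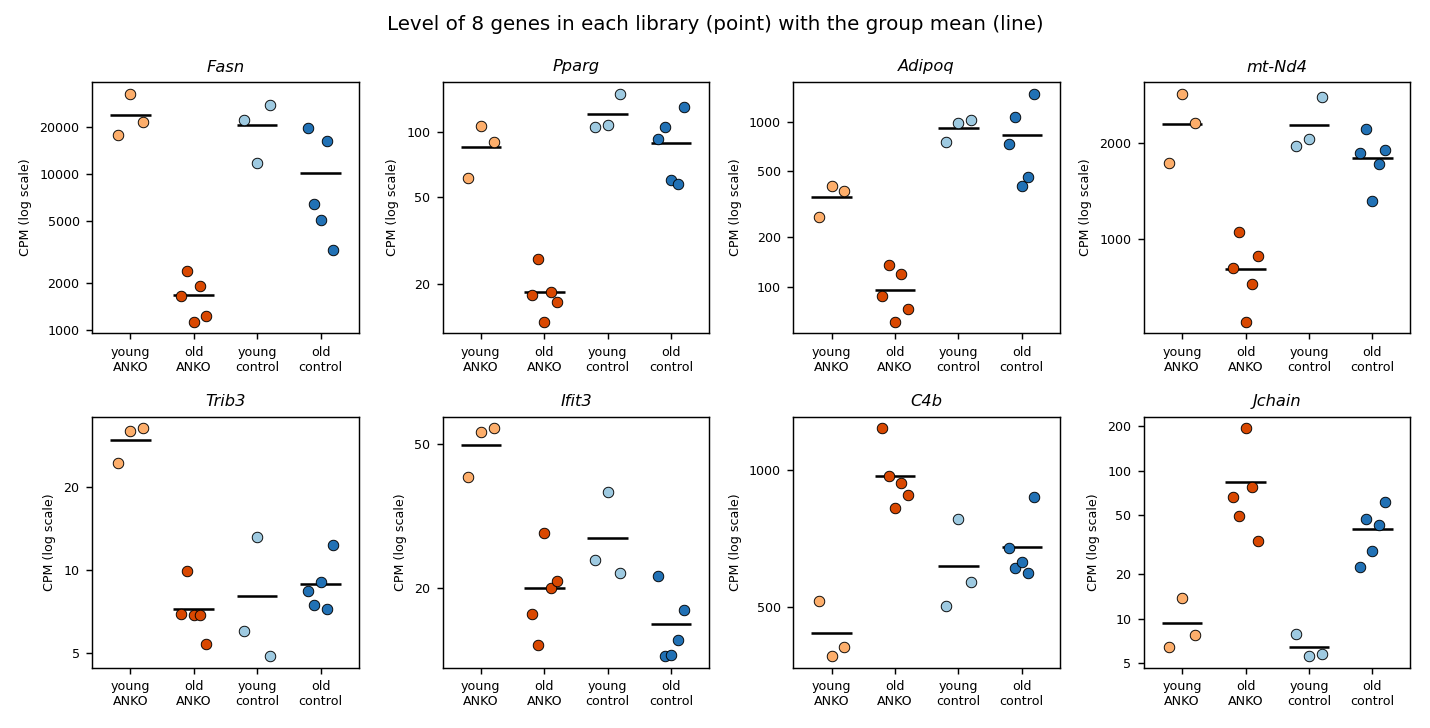
Level of 8 genes in each library (log axes, CPM), with one column per group, one point per library and a line at the group mean. In the ANKO columns the 3 young libraries of Fasn lie at 17753 to 32638 CPM and the 5 old ones at 1127 to 2386 CPM, and the old libraries of C4b and Jchain lie above the young ones.

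Lipogenic genes had the lowest median of the lists described and were called almost without exception. Of 29 genes of lipid synthesis and storage, 27 were lower in old ANKO fat and 0 higher, with a median log2 fold change of −2.62 (control fat −0.60, with 0 called). Fasn, fatty acid synthase (chr11:120805846-120824547), measured 17753, 32638 and 21649 CPM in the young libraries and 1638, 2386, 1127, 1918 and 1233 CPM in the old ones. Every old library lay far below every young one, and the log2 fold change was −3.85 ± 0.52 (adjusted p = 0.000631). Scd1, the stearoyl-CoA desaturase (chr19:44394455-44407879), measured 16333, 34200 and 20131 CPM against 1697, 2965, 1178, 1406 and 1008 CPM. The groups were again far apart, by −3.83 ± 0.41 (adjusted p = 0.000232). Fasn and Scd1 together with the rest of the list made up 49996, 97932 and 62403 CPM of the young libraries and 5435 to 10935 CPM of the old ones. In old control fat the same sum was 21781 to 52528 CPM.

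Regulators of the same pathway were lower too. Mlxipl, which encodes ChREBP, measured 201, 403 and 262 CPM in the young and 21.5, 61.6, 17.0, 28.2 and 27.7 CPM in the old ANKO libraries, a log2 fold change of −3.21 ± 0.38 (adjusted p = 0.000362). Srebf1, which encodes SREBP-1, ranged from 493 to 787 CPM in the young and from 139 to 206 CPM in the old libraries (−1.73 ± 0.23, adjusted p = 0.000538). Thrsp, a lipogenic nuclear protein induced by thyroid hormone and carbohydrate, went from 620, 1355 and 716 CPM to 64.1, 104, 45.4, 85.4 and 71.1 CPM. Its young and old libraries did not overlap, and its fold was −3.60 ± 0.36 (adjusted p = 0.000232). Slc25a1, the mitochondrial citrate exporter, fell by 3.36 on the log2 scale, Tkt, transketolase of the pentose phosphate route to NADPH, by 2.83, Pnpla3, a lipid droplet hydrolase, by 2.62, and Fabp4, the adipocyte fatty acid carrier, by 2.25. The elongases Elovl3 and Elovl6 each had a log2 fold change of −3.73, with adjusted p-values of 0.0803 and 0.0852 without young ANKO 2 and 0.0731 and 0.0893 without the muscle-rich libraries. Lpl, which frees fatty acids from circulating triglyceride, had −1.54 (adjusted p = 0.0286). Its call was lost without young ANKO 2 (0.163), young ANKO 3 (0.106), old ANKO 1 (0.061), old ANKO 3 (0.0563) or old ANKO 5 (0.0664). The 2 members not called were Agmo, the alkylglycerol monooxygenase, at −0.81 (adjusted p = 0.0999), and Mogat2, a monoacylglycerol acyltransferase, at −1.25 (adjusted p = 0.323). Scd3 reads can be shared with the near-identical Scd1, so its fold of −3.76 is uncertain.

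Most adipocyte identity genes fell too. Of 25 adipocyte markers 22 were lower and 0 higher, with a median of −2.08 (control fat −0.24, with 0 called). Pparg measured 61.2, 106 and 89.5 CPM in the young libraries and 17.7, 25.9, 13.4, 18.3 and 16.5 CPM in the old ones. The highest old library was below the lowest young one, with a log2 fold change of −2.22 ± 0.27 (adjusted p = 0.000403). Cebpa fell by 1.61 on the log2 scale (adjusted p = 0.00151), Slc2a4, the insulin-responsive glucose transporter, by 2.31, Trarg1, which traffics with it, by 2.32, and Adig, adipogenin, by 2.61. Pck1, used by adipocytes to make glycerol for triglyceride, had −1.84 (adjusted p = 0.011), lost without young ANKO 3 (0.0559), and −1.72 (adjusted p = 0.0668) in control ageing. Car3, an abundant adipocyte carbonic anhydrase, was not called at −1.42 (adjusted p = 0.065), though it was without old ANKO 2 (0.0236).

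Secreted products of adipocytes moved unequally. Of 13 adipokine genes, 6 were called lower and 1 higher, with a median of −0.35 (control fat 0.26, with 0 called). The count higher was 0 without young ANKO 2 or 3. Cfd, which encodes adipsin, the complement factor D protease, measured 1157, 1172 and 1218 CPM in the young and 64.0, 138, 52.1, 60.0 and 55.6 CPM in the old ANKO libraries. The young libraries were within a narrow range and all old ones far below it, by −4.0 ± 0.51 (adjusted p = 0.000483). Adipoq, the insulin-sensitising hormone adiponectin, measured 264, 410 and 383 CPM against 88.2, 136, 62.0, 120 and 74.4 CPM. Its log2 fold change of −1.87 ± 0.36 (adjusted p = 0.00691) missed the threshold without young ANKO 2 (0.0519). Retn, resistin, fell by 2.08, Rbp4, retinol-binding protein, by 1.74 and Angptl8, an insulin-induced regulator of lipoprotein lipase, by 2.23 on the log2 scale. Angptl8 averaged 27.2 CPM in young and 5.81 CPM in old ANKO fat, and 9.37 and 8.12 CPM in young and old control fat. Lep, leptin, the hormone that reports fat stores, was 45.1, 85.0 and 99.2 CPM in the young and 49.8, 109, 38.7, 86.7 and 55.5 CPM in the old ANKO libraries. Here the ages overlapped fully, with a log2 fold change of −0.17 ± 0.78 (adjusted p = 0.940) that turned to 0.07 without young ANKO 3. In control fat the fold for Lep with age was 2.66 (adjusted p = 0.199).

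Lipolysis genes were lower in 13 of 21 cases and higher in 0, with a median of −1.47 (control fat −0.25, with 0 called). Adrb3, the β3-adrenergic receptor that starts lipolysis, fell by 2.16 (log2), Pnpla2, the adipose triglyceride lipase, by 2.40, Lipe, the hormone-sensitive lipase, by 2.17, and Plin1, which coats the droplet and gates both lipases, by 1.99. Pde3b, through which insulin restrains lipolysis, fell by 1.47. Genes that start lipolysis and the gene that restrains it were thus both lower. Cidea, a droplet protein that is also a marker of thermogenic adipocytes, measured 23.6, 35.5 and 24.5 CPM in the young and 0.575, 1.68, 0.339, 1.74 and 1.34 CPM in the old libraries, the second largest fall among the genes named (−4.61 ± 0.70, adjusted p = 0.0016). Of 21 thermogenic genes, some of which are also in the lists above, 8 were lower and 0 higher, with a median of −0.89 (control fat 0.37). Of these, Kcnk3, a potassium channel that restrains thermogenesis, measured 114, 217 and 143 CPM against 17.7, 28.6, 14.8, 24.3 and 10.6 CPM, far apart in every library (−3.04 ± 0.33, adjusted p = 0.000245). Acot11, an acyl-CoA thioesterase induced by cold, fell by 1.78 (adjusted p = 0.000403). Its mean went from 34.4 to 10 CPM in ANKO fat, and control means were 6.73 CPM when young and 6.97 CPM when old. The thermogenic count was 5 with library totals or without young ANKO 3, old ANKO 1, old ANKO 3, old ANKO 4 or the muscle-rich libraries, and 4 without young ANKO 2. Among the lipolysis genes Npr3, the clearance receptor for natriuretic peptides, was not called (−0.89, adjusted p = 0.471). The number of lipolysis genes called was 6 without young ANKO 2, 8 without young ANKO 3 and 8 without the muscle-rich libraries.

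Some genes for handling sugar fell as well. Of 24 genes of glycolysis and glycogen, 10 were lower and 0 higher, with a median of −0.94 (control fat −0.00, with 0 called). Gys2, a glycogen synthase, measured 5.47, 16.9 and 8.80 CPM in the young and 0.815, 1.08, 0.508, 1.10 and 1.07 CPM in the old ANKO libraries. No old library reached the level of a young one, and the log2 fold change was −3.50 ± 0.54 (adjusted p = 0.00167). Pygl, glycogen phosphorylase, fell by 2.62 and Gbe1, the glycogen branching enzyme, by 2.23, so the genes for building and for breaking glycogen were both lower. Of the glycolytic enzymes, Pfkl (phosphofructokinase) fell by 1.55, Eno1 (enolase) by 1.49 and Gpi1 (glucose-6-phosphate isomerase) by 1.22. Slc2a5, the fructose transporter, had the largest fall of the genes named, from 35.6, 85.9 and 49.1 CPM to 1.63, 3.75, 1.53, 1.49 and 0.695 CPM (−4.97 ± 1.21, adjusted p = 0.0254). Its call was lost without young ANKO 2 (0.118) or 3 (0.0599) and without old ANKO 1 (0.0609), 3 (0.054), 4 (0.0599) or 5 (0.062). Of 24 cholesterol synthesis genes 11 were lower and 0 higher, with a median of −0.62, and 5 were called without young ANKO 2 and 7 without the muscle-rich libraries.

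Transcripts of the mitochondrial genome were lower in old ANKO fat. Of the 13 protein-coding genes, 12 were called lower and 0 higher, with a median of −1.36 (control fat −0.32, with 0 called). mt-Nd4, a subunit of complex I, measured 1731, 2839 and 2308 CPM in the young and 817, 1056, 555, 725 and 888 CPM in the old libraries. All 5 old libraries lay below the young range, with a log2 fold change of −1.50 ± 0.22 (adjusted p = 0.00101). The folds of the other 11 called ran from −0.77 for mt-Nd6 to −1.66 for mt-Nd3 and mt-Atp6. The calls for mt-Nd6 (0.0602) and mt-Co1 (0.105) were lost without young ANKO 2, and that for mt-Co1 also without young ANKO 3 (0.051). mt-Atp8, which overlaps mt-Atp6, was the member not called (−1.76, adjusted p = 0.188).

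Most nuclear genes of the respiratory chain were called lower as well, with a count that moved with the libraries used and a median that moved less. Of 52, 45 were lower and 0 higher, with a median of −0.91 (control fat −0.18, with 0 called). The count was 6 without young ANKO 2, 25 without young ANKO 3, 27 without old ANKO 1 and 16 without the muscle-rich libraries. In the same order the median was −0.79, −0.95, −0.86 and −1.13. Cycs, cytochrome c, measured 53, 71.9 and 57.1 CPM against 18.7, 21.2, 16.8, 17.2 and 22.6 CPM, separate in every library (−1.65 ± 0.25, adjusted p = 0.00125). Sdhb of complex II fell by 1.33, Cox8a and Cox7a2 of complex IV by 1.21 and 1.28, and Uqcrb of complex III by 1.21 on the log2 scale. Ndufb9 of complex I (0.0526) and Cox5a of complex IV (0.0606) lost their calls without young ANKO 2, and Uqcrc1 of complex III was not called (−0.85, adjusted p = 0.0559). Fatty acid oxidation genes were lower in 13 of 23 cases and higher in 0, with a median of −1.04. That count was 3 without young ANKO 2 and 6 without the muscle-rich libraries. Hadha and Hadhb, the 2 chains of the mitochondrial trifunctional protein, fell by 1.35 and 1.44, and Pex11a, which drives peroxisome division, by 1.58.

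**Figure D3:**
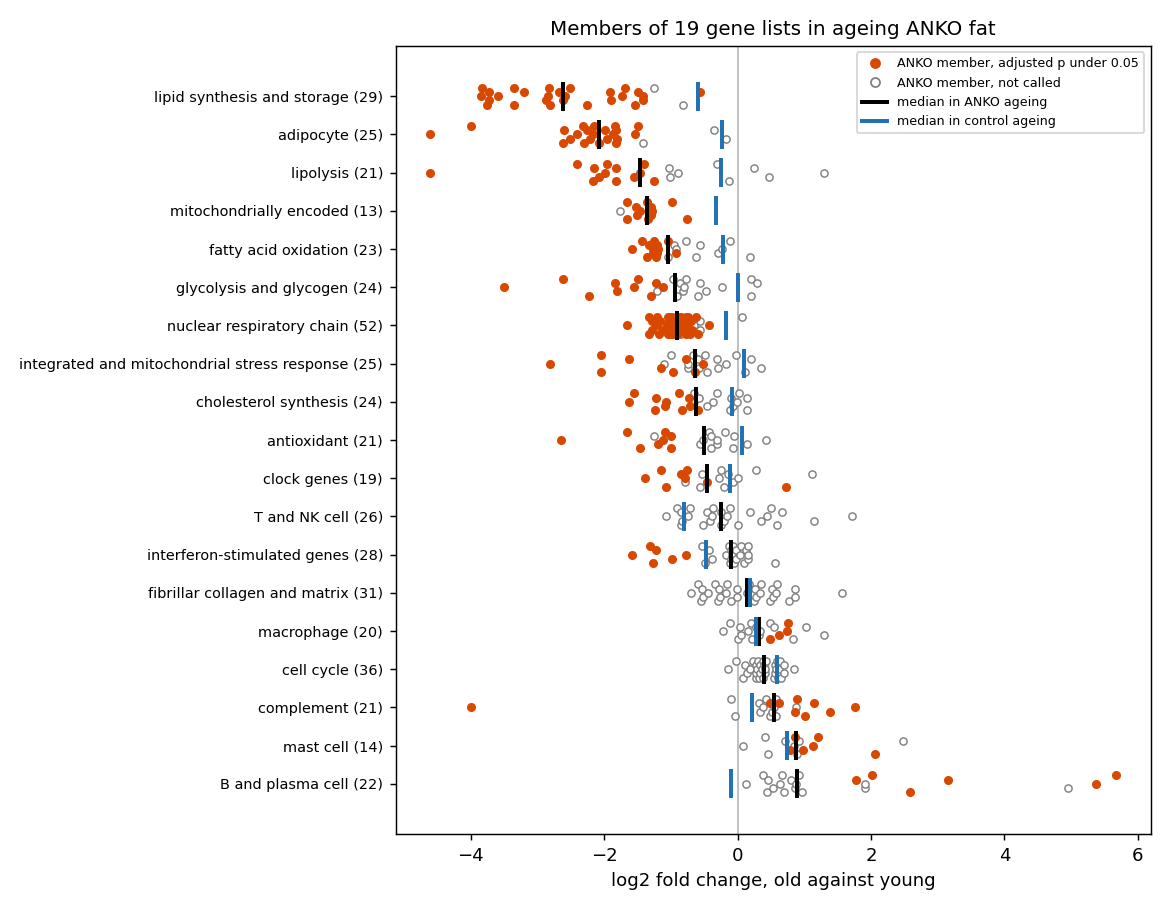
Log2 fold change with age in ANKO fat of every measured member of each gene list, one point per gene, filled where called and open where not, with a black line at the list's median and a blue line at its median in control ageing. Lipid synthesis and storage (median −2.62) and adipocyte markers (−2.08) lie lowest, and complement (0.54), B and plasma cell (0.89) and mast cell (0.88) lists lie above 0.

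Some antioxidant and integrated stress response genes were lower in old than in young ANKO fat. In the other stress lists 2 unfolded protein response genes were higher and no heat shock gene was called. Of 21 antioxidant genes, 8 were lower and 0 higher, with a median of −0.51 (control fat 0.06, with 0 called). Gsta3, a glutathione transferase, measured 24.0, 49.6 and 29.7 CPM in the young and 3.79, 8.19, 5.72, 5.65 and 4.12 CPM in the old libraries. The ages were apart, with a log2 fold change of −2.65 ± 0.35 (adjusted p = 0.000554). Cat, catalase, fell by 1.66, Srxn1, sulfiredoxin, by 1.46, Gpx4, the lipid hydroperoxide peroxidase, by 1.20, Sod1 by 1.12, and Gclm, the modifier subunit of glutathione's rate-limiting enzyme, by 1.08. Of 25 genes of the integrated stress response and its mitochondrial arm, which the factor ATF4 controls in large part, 9 were lower and 0 higher, with a median of −0.64 (control fat 0.10). This list summed to 1143, 1517 and 1308 CPM in young ANKO 1 to 3 and to 787, 865, 748, 733 and 748 CPM in old ANKO 1 to 5. In control fat it summed to 874, 993 and 943 CPM when young and 891, 1230, 802, 813 and 1246 CPM when old. The fall with age thus began from young ANKO levels above those of young control fat. Trib3, an ATF4-induced pseudokinase (chr2:152337422-152344032), was 24.4, 31.9 and 32.7 CPM in the young and 6.91, 9.91, 6.86, 6.88 and 5.37 CPM in the old libraries. No old library came near a young one (−2.04 ± 0.28, adjusted p = 0.000689). Atf5 fell by 1.62 (adjusted p = 0.00143) and Lonp1, the mitochondrial matrix protease, by 0.96 (adjusted p = 0.00255).

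Of 17 genes of the unfolded protein response of the endoplasmic reticulum, 2 were higher and 0 lower, with a median of 0.09, and the count higher was 0 without young ANKO 1, young ANKO 2 or the muscle-rich libraries, and 1 without young ANKO 3 or old ANKO 1, 3 or 5. None of 12 heat shock genes, which encode protein chaperones, was called (median −0.28, control fat 0.11).

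The other calls of the integrated stress response depended on single libraries. Without young ANKO 2 the list held 3 calls, and without the muscle-rich libraries 5. Atf4 itself had −0.52 (adjusted p = 0.0077), Clpp, the matrix peptidase, −0.64, Ddit3, the factor CHOP, −0.77, and Asns, asparagine synthetase, −1.15, and without young ANKO 2 their adjusted p-values were 0.0821, 0.0726, 0.12 and 0.147. Gdf15, a secreted signal of mitochondrial stress, measured 17.6, 32.3 and 34.8 CPM against 6.86, 9.71, 4.92, 7.65 and 5.00 CPM. Though its ages did not overlap, its call (−2.05, adjusted p = 0.0417) was lost when any 1 ANKO library was left out (0.0512 to 0.182). Fgf21, a second such signal, was 0.474, 3.12 and 2.50 CPM against 0.288, 0.493, 0.0847, 0.467 and 0.0926 CPM, so that young ANKO 1 lay within the old range. Its call (−2.81, adjusted p = 0.0476) held only when young ANKO 1 was left out and was lost, with adjusted p up to 0.271, without any other ANKO library.

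Some interferon-stimulated genes were lower, while the list as a whole was centred near 0. Of 28, 6 were lower and 0 higher with a median of −0.10 (control fat −0.48), and with library totals the median was 0.03. Ifit3, an antiviral protein that binds with IFIT1, measured 40.4, 53.9 and 55.2 CPM in the young and 16.9, 13.9, 28.4, 20.0 and 20.8 CPM in the old libraries, with no overlap (−1.32 ± 0.23, adjusted p = 0.00369). Rsad2, viperin, fell by 1.58 (adjusted p = 0.00282) and Ifit3b by 1.27 (adjusted p = 0.00206). Ifit3 and Ifit3b are close copies, so reads may have been split between them. Ifit1 (−1.23), Ifit2 (−0.78) and Ifi27 (−0.98) lost their calls without young ANKO 2 (0.0705, 0.0764 and 0.0938) and without young ANKO 3 (0.058, 0.0787 and 0.0565), which leaves 3 calls in either case.

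Several complement genes rose, while the adipocyte-made Cfd fell. Of 21 complement genes, 8 were higher and 1, Cfd, lower, with a median of 0.54 (control fat 0.22, with 0 called). C4b, a component of the classical and lectin pathways, measured 515, 389 and 408 CPM in the young and 1232, 967, 825, 937 and 881 CPM in the old ANKO libraries. All old libraries lay above all young ones, and the log2 fold change was 1.15 ± 0.19 (adjusted p = 0.00227). C4a, a close copy of C4b whose reads may be shared with it, rose by 1.02 (adjusted p = 0.00445, and 0.053 without the muscle-rich libraries), and C7 of the membrane attack complex by 1.75 (adjusted p = 0.0033). C3, the hub of all complement pathways, was 1411, 1221 and 1295 CPM against 3424, 1950, 1929, 2012 and 2544 CPM. Its ages did not overlap (0.86 ± 0.21, adjusted p = 0.0227), but its adjusted p was 0.0504 without young ANKO 1, 0.133 without young ANKO 2, 0.0855 without young ANKO 3 and 0.05 without old ANKO 5. C6 (1.39), Cfp (0.89) and C1qa (0.49) were also called. C6 was lost without young ANKO 1 (0.0786), 2 (0.125) or 3 (0.0618). Cfp was lost without young ANKO 1 (0.0902), 2 (0.103) or 3 (0.0861) or old ANKO 5 (0.0548), and C1qa without any young library or old ANKO 1, 4 or 5 (0.0753 to 0.213). In all, 4, 3 and 3 complement genes were called higher without young ANKO 1, 2 and 3, and 5 without old ANKO 5 or without the muscle-rich libraries.

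Genes of antibody-secreting and other immune cells were higher in old ANKO fat, in part. Of 22 B and plasma cell genes 6 were higher and 0 lower, with a median of 0.89 (control fat −0.10, with 1 called higher). Without old ANKO 3, the library with the highest B and plasma cell sum, the count was again 6 and the median 0.45. In control fat the list summed to 1490, 1165 and 1435 CPM when young and 1829, 2858, 3193, 2370 and 2036 CPM when old. Every old control library was thus above every young control one in this sum, despite the median. Jchain, which joins IgM and IgA subunits, measured 6.50, 13.9 and 7.74 CPM in the young and 66.1, 49.4, 193, 77.9 and 33.3 CPM in the old libraries. The groups were apart by a wide margin, with old ANKO 3 highest (3.16 ± 0.55, adjusted p = 0.00388), and control fat had 2.66 (adjusted p = 0.0475). Igkc, the κ light chain, rose by 2.58, Ighm, the μ heavy chain, by 1.77 and Mzb1, a chaperone of antibody secretion, by 2.02, and without young ANKO 2 the adjusted p-values were 0.0539, 0.0521 and 0.0624. Ighg2b (5.37) and Ighg2c (5.68) encode similar heavy chains, and their calls were lost without any 1 of the 3 young libraries (0.0669 to 0.155). The list held 1 call without young ANKO 2 and 3 without the muscle-rich libraries. Of 14 mast cell genes 6 were higher and 0 lower, with a median of 0.88 (control fat 0.74). Tpsb2, a tryptase, measured 21.8, 22.8 and 17.2 CPM against 40.6, 39.7, 40.9, 52.9 and 30.1 CPM, with no overlap (0.99 ± 0.19, adjusted p = 0.0056) and 0.93 in control fat (adjusted p = 0.0451). The chymases Mcpt4 (1.13) and Cma1 (0.86), the tryptase Tpsg1 (2.06), Hdc, which makes histamine (1.21), and Cpa3, a carboxypeptidase (0.79), were the other calls. Mcpt4 lost its call without young ANKO 2 (0.0587) and Cma1 without young ANKO 2 (0.163) or 3 (0.0936). Hdc lost it without any 1 young library (0.0558 to 0.101), and Tpsg1 and Cpa3 without any 1 young library or old ANKO 1, 2 or 4, Tpsg1 also without old ANKO 5 (0.0536 to 0.18). The mast cell count was 3, 1 and 2 without young ANKO 1, 2 and 3, and 2 without the muscle-rich libraries.

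Macrophage genes were called higher more often than all genes, but those calls did not hold. Of 20, 4 were higher, where 1.79% of all genes tested were, and 0 lower, with a median of 0.32 (control fat 0.27, with 0 called). They included Itgam, the integrin CD11b (0.76, adjusted p = 0.0185), Lyz2, lysozyme (0.74), and Csf1r, the receptor for macrophage growth factor (0.63). Itgam lost its call without any 1 young library (0.0546 to 0.12), Lyz2 without young ANKO 1 or 2 or old ANKO 4 or 5 (0.0517 to 0.184), and Csf1r without any 1 ANKO library other than old ANKO 2 (0.0542 to 0.167). The count was 0 without young ANKO 1, young ANKO 2 or the muscle-rich libraries, 1 without young ANKO 3 or old ANKO 4, and 2 without old ANKO 1 or old ANKO 5. Of 26 genes of senescence and secreted inflammation, 3 were higher and 1 lower with a median of 0.41 (control fat 0.28). Ccl8, a monocyte-attracting chemokine, measured 9.04, 10.8 and 11.6 CPM in the young and 29.3, 21.0, 46.9, 41.2 and 30.7 CPM in the old libraries. Its groups were separate, at 1.69 ± 0.29 (adjusted p = 0.00321), and its call held without each ANKO library in turn. Cdkn2a, whose products p16 and p19ARF arrest the cell cycle, was 0.388, 0.268 and 1.25 CPM against 2.93, 4.93, 2.08, 2.68 and 1.57 CPM. Its log2 fold change was 2.16 ± 0.52 (adjusted p = 0.023), lost without young ANKO 1 (0.0981) or young ANKO 2 (0.15), and 2.43 in control fat (adjusted p = 0.0728). Mmp3, a matrix protease, had 1.16 (adjusted p = 0.0426), lost without any 1 ANKO library other than old ANKO 3 (0.0501 to 0.181). The list held 1 higher call without young ANKO 1, without young ANKO 2 or without the muscle-rich libraries. It held 0 lower calls without any 1 ANKO library or without the muscle-rich ones.

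Dbp, Per2, Per3 and Nr1d2 were called lower and Arntl higher with age in both genotypes, but calls in control fat moved with the libraries used. Over all genes tested, 15 were called lower in control ageing, and 1 without young control 2 or without young control 3. At most 1 of these 4 control falls was thus called there. Calls higher in control ageing went from 89 to 5 in the same fits. The clock runs on BMAL1 (Arntl) with CLOCK or NPAS2, which switch on Per, Nr1d and PAR-bZIP genes such as Dbp and Tef through E-box sequences, and the products of Per and Nr1d in turn repress them. The labels used here give no time of day for collection. Of 19 clock genes, 7 were lower and 1 higher in old ANKO fat with a median of −0.46, and 4 were lower and 2 higher in old control fat with a median of −0.11. Dbp (chr7:45705088-45710203) measured 79.9, 88.3 and 72.2 CPM in the young and 26.9, 48.2, 35.3, 23.2 and 19.5 CPM in the old ANKO libraries. No old library reached the young range, and the log2 fold change was −1.39 ± 0.24 (adjusted p = 0.00332), with −1.92 in control fat (adjusted p = 0.00461). Arntl (chr7:113207465-113314126) moved the other way, from 14.3, 16.7 and 14.1 CPM to 28.2, 19.4, 24.7, 29.2 and 23.3 CPM, again without overlap. It rose by 0.73 ± 0.18 (adjusted p = 0.0222) in ANKO and by 1.17 (adjusted p = 0.0145) in control fat. The Arntl call in ANKO fat was lost without young ANKO 1 (0.0781), 2 (0.0729) or 3 (0.0988), old ANKO 1 (0.0528) or the muscle-rich libraries (0.0722).

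Other clock calls in ANKO fat were Per2 (−0.76), Per3 (−0.79), Nr1d2 (−0.46), Ciart (−1.08) and Tef (−0.85). In control fat Per2 had −1.21, Per3 −0.97 and Nr1d2 −0.70, each called. Ciart (−0.66) and Tef (−1.04) were not called there. For Npas2 the ANKO fold was 1.11 (adjusted p = 0.0867, and 0.0176 without old ANKO 3), and the control fold 1.81 (adjusted p = 0.0478). No difference between the genotypes was called for any of the 19 clock genes. Of the ANKO calls, Per2 was lost without young ANKO 1 (0.08) or 2 (0.156), Per3 likewise (0.0511 and 0.0884), and Ciart without young ANKO 2 (0.127) or 3 (0.0726). Nr1d2 was lost without young ANKO 1 or 2 or old ANKO 1, 3, 4 or 5 (0.0639 to 0.206) and Tef without any 1 ANKO library other than old ANKO 2 (0.0859 to 0.207). Leaving out young ANKO 1 left 3 clock genes called lower, leaving out young ANKO 2 left 1, and leaving out the muscle-rich libraries left 1.

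The E-box CACGTG, which reads the same on both strands, was looked for in the 250 bases before each start site (RefSeq, GRCm38.p6). It occurred in 5 of 16 clock genes with a listed promoter (31.2%) and in 1854 of 27025 genes in all (6.86%). Ciart held 3 copies, and Per1, Cry1, Tef and Bhlhe41 held 1 in a window. The 150 bases before the start are shown for Ciart and for both starts of Tef, the called clock genes with a match, with the motif in capitals. The windows are chr3:95882229-95882378 on the minus strand for Ciart, and chr15:81802523-81802672 and chr15:81811264-81811413 on the plus strand for Tef.
Ciart: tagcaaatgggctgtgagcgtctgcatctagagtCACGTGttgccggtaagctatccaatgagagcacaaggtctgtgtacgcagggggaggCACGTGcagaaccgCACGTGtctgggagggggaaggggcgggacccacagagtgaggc
Tef, first start: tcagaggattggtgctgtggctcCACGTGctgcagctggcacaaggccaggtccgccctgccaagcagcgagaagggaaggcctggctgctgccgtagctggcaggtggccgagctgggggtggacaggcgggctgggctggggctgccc
Tef, second start: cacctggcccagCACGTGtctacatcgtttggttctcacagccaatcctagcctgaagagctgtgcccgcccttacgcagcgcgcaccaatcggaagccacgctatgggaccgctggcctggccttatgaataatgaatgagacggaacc
All 3 copies of Ciart lie within the bases shown. A match is a description of the sequence, not a binding site, and genes with none in this window, such as Dbp, Per3 and Nr1d2, may hold copies outside it.

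**Figure D4:**
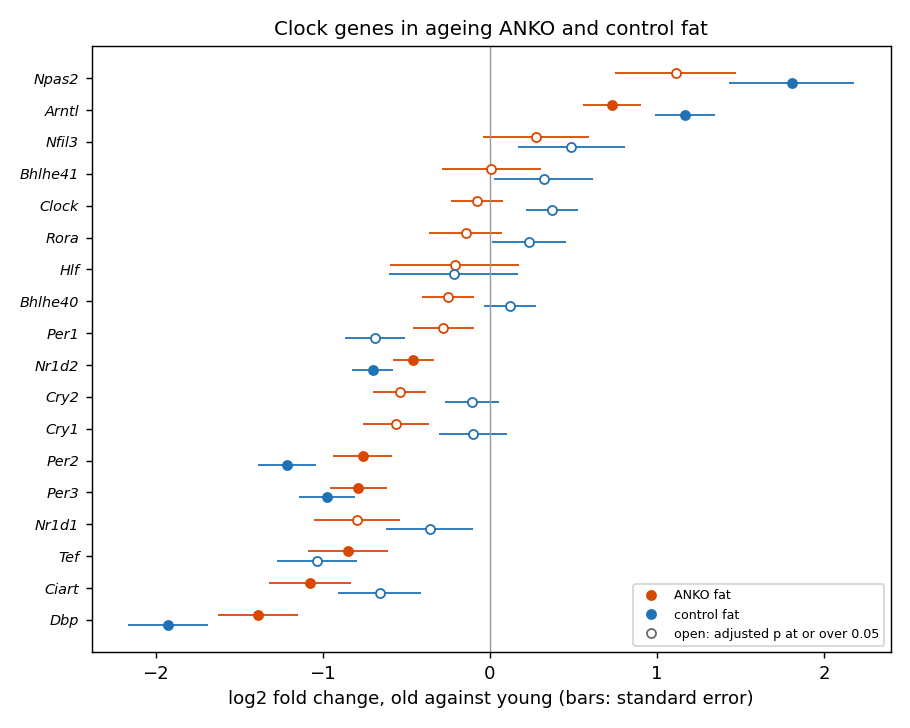
Log2 fold change with age (± SE) of clock genes in ANKO fat and in control fat, with filled points for called genes and open ones for the rest. Dbp (−1.39 and −1.92) and Per2 (−0.76 and −1.21) lie below 0 and Arntl (0.73 and 1.17) above 0 in both genotypes.

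The genes with the largest folds with age in ANKO fat are given here beside their folds in control fat. Old and young ANKO libraries did not overlap for 1658 genes that were higher with age (7.82% of those tested) and 2517 that were lower (11.9%). The 12 largest falls among called genes of this kind were Slc2a5, Cidea, Aspg, Cfd, Fasn, Scd1, Clca1, Scd3, Elovl3, Elovl6, Thrsp and Gys2, with a median of −3.82. In control ageing these 12 genes had a median of −0.88, 10 fell in sign and 1 was called. That gene was Clca1, a secreted regulator of chloride conductance, at −3.80 in ANKO and −4.45 in control fat. Its ANKO call was lost without young ANKO 2 (0.0661). The 12 largest rises had a median of 4.08 in ANKO and 3.58 in control ageing, where all 12 had the same sign and 6 were called. The difference between genotypes was called for no gene of either set. The 2 comparisons share no library, but both sets were chosen on the ANKO folds, which are also part of the difference, so the medians and the gap between them are a description with no test.

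Several of the largest rises began from very low levels in young fat. Amtn, a tooth enamel protein, was 0.0861, 0.178 and 0 CPM in the young and 1.44, 20.8, 9.28, 25 and 14.2 CPM in the old ANKO libraries, so that its log2 fold of 7.21 depends on the small count added before taking logs. Olfm4, a secreted glycoprotein of epithelia and neutrophils, went from 0.215, 0.178 and 0.192 CPM to 0.863, 9.81, 3.64, 1.74 and 14.0 CPM (4.90 ± 0.85, adjusted p = 0.00349). Alox12e, an epidermal lipoxygenase, went from 0.517, 2.59 and 0.0962 CPM to 71.3, 32.1, 17.7, 18.0 and 43.4 CPM (5.08 ± 0.95, adjusted p = 0.00599, and 0.0764 without the muscle-rich libraries). In each of these genes every old library exceeded every young one, which the choice of this set required. Brinp3, expressed mainly in neurons, was 0.603, 0.714 and 0.721 CPM against 5.04, 5.37, 4.15, 7.86 and 4.54 CPM, the least scattered of these rises (2.98 ± 0.46, adjusted p = 0.00161, and 3.42 in control fat with adjusted p = 0.00685). The others were Kcnd2, a potassium channel (4.41), Csprs (3.67), Jchain, Stk32a, a kinase (3.96), Slpi, a secreted protease inhibitor (4.70), Muc4, an epithelial mucin (4.20), Tmprss6, a membrane protease (3.45), and Ppp2r2c, a phosphatase subunit (3.54). Calls were lost without young ANKO 1 (0.058) or 2 (0.0991) for Stk32a, and without any 1 young library for Muc4 (0.0704 to 0.125) and Tmprss6 (0.0939 to 0.127). Slpi was lost without any 1 young library or old ANKO 1, 3 or 5 (0.0511 to 0.212), and Ppp2r2c without any 1 young library or old ANKO 1 or 2 (0.0556 to 0.18). Keratinocyte markers, which share epithelial expression with some of these genes, had 1 of 18 called higher, and 0 without any 1 young library, old ANKO 1, 2 or 5 or the muscle-rich libraries. Their median was −0.74, or 0.87 without young ANKO 2, the library with the most keratinocyte RNA among the young.

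**Figure D5:**
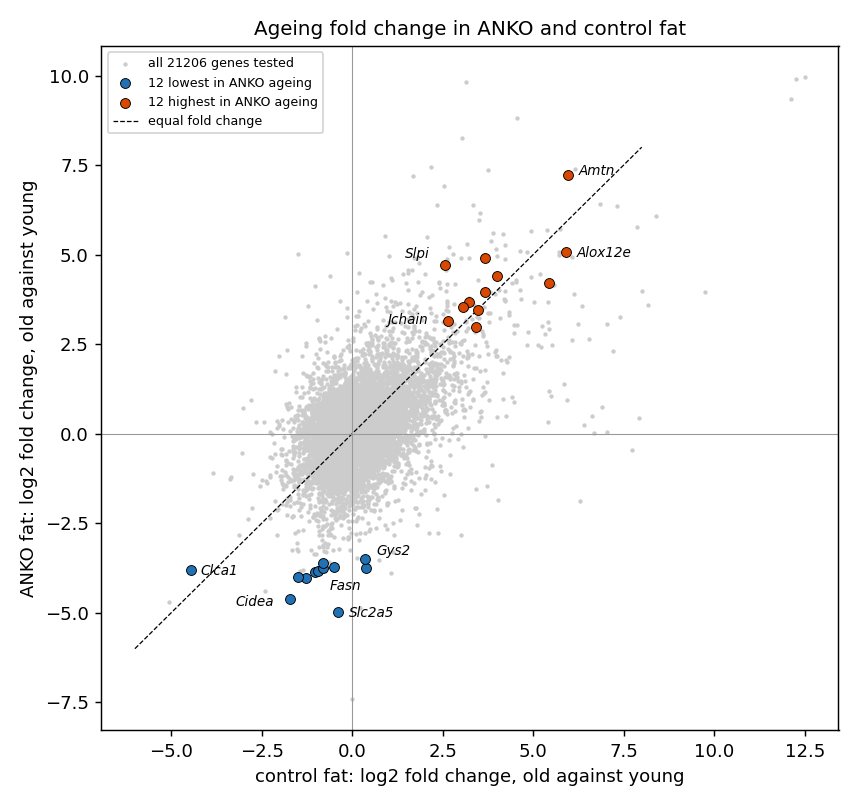
Log2 fold change with age in control fat (x axis) and in ANKO fat (y axis) for all 21206 genes tested in grey, with the 12 highest and the 12 lowest in ANKO ageing in colour and a dashed line where both folds are equal. The 12 highest lie near that line (medians 4.08 in ANKO and 3.58 in control fat), and 11 of the 12 lowest lie below it (medians −3.82 and −0.88).

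Control fat had fewer calls with age, and the difference between the genotypes was called for 1 gene. In control ageing 104 genes (0.490%) were called, 89 higher (0.420%) and 15 lower (0.0707%). In both genotypes 63 genes were called in the same direction. Old control libraries varied widely in RNA of other tissues. Their muscle marker sums ran from 330 to 90626 CPM and their mammary sums from 1662 to 15339 CPM (1920 to 5014 CPM in old ANKO). The part of this spread in the number of control calls was not tested. The test of the difference itself, ageing in ANKO minus ageing in control, called 1 of 21206 genes (0.00472%), with 2037 genes at an unadjusted p under 0.05. DESeq2 called 258. The larger number of calls in ANKO ageing is thus not shown gene by gene to be a difference between the genotypes by edgeR. Gadd45a, a growth arrest and DNA damage response gene (chr6:67035096-67037457), was the gene called. In ANKO fat it measured 12.5, 17.0 and 14.8 CPM in the young and 6.38, 8.88, 7.25, 5.65 and 7.69 CPM in the old libraries, a log2 fold change of −1.04 ± 0.20 (adjusted p = 0.00643). In control fat it measured 7.77, 6.46 and 5.85 CPM in the young and 15.8, 16.7, 12.1, 10.5 and 19.7 CPM in the old libraries, a log2 fold change of 1.16 ± 0.21 (adjusted p = 0.034). The ages were apart in both genotypes and in opposite order. The difference was −2.20 ± 0.29 (adjusted p = 0.04), a call that was lost without any of 11 of the 16 libraries (0.0571 to 0.198). It held without young ANKO 1, old ANKO 2 and old control 3, 4 and 5. The ANKO fall missed the threshold without young ANKO 2 (0.0632).

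Among the genes next in line for a difference were metabolic enzymes on the lower side. Impdh1, of guanine nucleotide synthesis, Acot2, a mitochondrial acyl-CoA thioesterase, and Ephx1, an epoxide hydrolase, had differences of −1.20, −1.24 and −1.17, each with an adjusted p of 0.0577. Gsta3 (−3.15) had the same adjusted p, and Tsku (−1.93), a secreted proteoglycan, and Tmem45b (−5.16) had 0.0632. For Impdh1 the ANKO libraries measured 83.3, 117 and 92.9 CPM against 47.3, 38.7, 43.3, 47.6 and 40.5 CPM (−1.17 ± 0.12, adjusted p = 0.000232). Its old libraries were tightly grouped below the young ones, and the fold in control fat was 0.03. On the higher side C3 led with a difference of 1.48 (adjusted p = 0.0768; 0.86 in ANKO and −0.62 in control fat), followed by Csrp2, a LIM-domain protein, at 1.04 (adjusted p = 0.156). Tcf24 (1.69), Nr5a2 (1.25), Adam33 (0.68), Man2a1 (0.78) and Impg2 (1.59) had an adjusted p of 0.181 and Sntg1 (2.71) 0.183. Of the genes in the lists above, differences for Trib3 (−2.19, unadjusted p = 8.12e-05), Thrsp (−2.80, 7.26e-05), Atf5 (−1.97, 6.71e-05), Mlxipl (−2.86, 0.000106), Scd1 (−2.89, 0.000179), Fasn (−2.84, 0.00153) and C4b (1.01, 0.00121) were not called after adjustment in edgeR.

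Endothelial genes were called lower more often than all genes, while mammary epithelial markers gave 1 call. Of 18 endothelial genes 4 were lower and 1 higher, where 4.55% and 1.79% of all genes tested were, with a median of −0.29 (control fat −0.22). They included Fabp4, which adipocytes also express, and Gpihbp1, which holds lipoprotein lipase on capillaries, at −1.43 (adjusted p = 0.00923, and 0.0856 without young ANKO 2). The number lower was 1 without young ANKO 2, and 2 without young ANKO 3, old ANKO 1, old ANKO 3, old ANKO 5 or the muscle-rich libraries, and the number higher was 0 without any 1 young library, old ANKO 1, 2 or 4 or the muscle-rich libraries. Mammary epithelial markers, from the gland embedded in the female depot, summed to 1886 to 2828 CPM in the young and 1920 to 5014 CPM in the old ANKO libraries. Of 28 such genes 1 was higher and 0 lower, with a median of 0.68 (control fat 1.05, with 1 called higher). The gene called in ANKO fat is also the keratinocyte marker called above, so it is counted in both lists. The count higher was 0 in turn without young ANKO 1, 2 or 3, old ANKO 1, 2 or 5 or the muscle-rich libraries. It was 3 without old ANKO 3. Of 26 Wnt signalling genes 2 were higher and 0 lower, with a median of 0.38 (control fat 0.33). Dkk3, a secreted member of the Dickkopf family, measured 11.1, 8.48 and 12.0 CPM in the young and 53.9, 39.9, 29.6, 34.4 and 45.0 CPM in the old libraries. It was higher in every old library (1.95 ± 0.41, adjusted p = 0.011), and in control fat its fold was 2.14 (adjusted p = 0.0391). The other was Wnt11, a Wnt ligand, at 0.89 (adjusted p = 0.0134). Without young ANKO 2 neither was called, without the muscle-rich libraries Dkk3 was not (0.104), and without young ANKO 3 Wnt11 was not.

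Several lists gave no call with age in ANKO fat. The 36 cell cycle genes had a median log2 fold change of 0.40, the 31 genes of fibrillar collagen and matrix 0.14, the 26 T and NK cell genes −0.25 and the 21 skeletal muscle genes 0.31. In control ageing their medians were 0.59, 0.18, −0.80 and 0.63, with 1 collagen and matrix gene called higher there. For skeletal muscle the spread between libraries of 1 age, from 340 to 38286 CPM among the 3 young ones, leaves little precision.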

How the data were processed

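RNA-seq read counts per gene from 16 libraries were used, as deposited by the authors in 1 table of 40757 lines. Per the submitters' processing notes the tools were STAR 2.0.4b, Subread and featureCounts 1.45 on GRCm38. Neither the annotation release nor the strand setting was stated, so overlapping and antisense genes are uncertain. Of the lines, 322 were full repeats, and a further 113 were dropped to leave 1 line per symbol (40322 symbols). Another 24 symbols had been turned into dates and hold 0.126% of reads. Groups came from the sample titles. Positions were matched by symbol to GENCODE annotation of GRCm38 for 21165 of 21206 genes tested, and promoters to RefSeq.

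From the deposited counts, 1 model of 4 groups over all 16 libraries was fitted in edgeR 4.0.16 (filterByExpr, TMM, robust quasi-likelihood F-test) under R 4.3.3, for old against young ANKO, old against young control and the difference between them. All p-values printed are two-sided and from that fit unless another tool is named, and adjusted p-values are Benjamini-Hochberg over all genes tested. Standard errors are the fold divided by the square root of F. Alternatives were DESeq2 1.42.0, other scalings and filters, fewer groups, a replicate block and leaving out libraries. The omission of the 3 muscle-rich ANKO libraries was chosen after seeing the data. The script was tested on simulated data. The comparison and gene lists were chosen with earlier results of these data known. Genes named are Nampt, the 12 highest and 12 lowest called folds without overlap (mean of at least 2 CPM, no predicted genes or antibody segments), the 8 smallest p-values each way for the difference, and, per list, up to 8 members with the smallest p, 3 with the smallest p for the difference and 2 abundant uncalled ones. All members of the mitochondrial, adipokine and clock lists could be named. A few genes that this rule names are not reported here, though list counts include them.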

Additional observations from a re-analysis of the deposited data

Results flagged for a closer look

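For 187 gene levels and list sums the 5 old ANKO libraries were searched for 1 that stands apart from the other 4 by Dixon's ratio (critical value 0.71), and 24 had one. About 1 in 20 would by chance if the values were independent and normally spread. These CPM were not log-transformed, and some genes are also part of a list sum, so the 24 are not set against that share. Old ANKO 3 was highest for antibody genes, with 193 CPM of Jchain, 1408 of Igkc, 2454 of Ighm, 692 of Ighg2b and 788 of Ighg2c, and a B and plasma cell sum of 9057 CPM. The same library had 255 CPM of Slpi, against 27.4 CPM in the next library, the lowest Hadhb (58.8 CPM) and the lowest Wnt signalling sum (919 CPM). Old ANKO 2, one of the muscle-rich libraries, was highest for Mlxipl (61.6 CPM), Cfd (138), Rbp4 (9.07), Per3 (79.6), Tef (139), Ppp2r2c (10.4) and the antioxidant sum (2288 CPM). Old ANKO 5, also muscle-rich, was highest for Clca1 (3.15 CPM), Cox7a2 (24.2), Hadha (157), Kcnd2 (10.4), Muc4 (105) and Tmprss6 (85.6). Old ANKO 4 was highest for Cma1 (35.7 CPM) and old ANKO 1 for Sntg1 (16.6 CPM). The ageing effect on Gadd45a differed between the genotypes by −2.20 on the log2 scale (adjusted p = 0.04 in edgeR), falling in ANKO and rising in control fat.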

How the results depend on the processing

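The number of genes called with age in ANKO fat was 1338 with RLE size factors, 1300 with library totals, 1076 without a filter on low counts and 1300 with at least 1 CPM in 3 libraries. It was 2290 with DESeq2 (929 higher, 1361 lower), 2085 when only the ANKO groups were fitted (675 higher), and 534 without the 3 muscle-rich libraries (78 higher, 456 lower). Without each library in turn it ran from 336 to 1248 (67 to 462 higher, 269 to 870 lower). For control ageing it was 816 with DESeq2 (653 higher, 163 lower), 60 without a filter (51 higher, 9 lower), 4 with only the control groups (3 higher, 1 lower), and 6 to 212 without each library (5 to 180 higher, 1 to 40 lower). For the ageing difference it was 11 with library totals, 258 with DESeq2, 7 without a filter and 0 with the stricter filter. It was 0 without the 3 muscle-rich ANKO libraries, a fit that kept every control library, also those with much muscle RNA. Without each library it ran from 0 to 79 (79 without old control 3, 51 without young ANKO 1). The labels number the libraries in each group, and a replicate block gave 1121 calls in ANKO (269 higher, 852 lower), 4 in control ageing (4 higher, 0 lower) and 1 for the difference. Deviations of same-numbered ANKO libraries correlated at −0.13, 0.07 and 0.35, so the numbers were not taken to pair them. Nampt's log2 fold was 0.11 with library totals and −0.05 to 0.02 without each ANKO library, Lep's ran from −0.43 to 0.07 (without young ANKO 3), and the keratinocyte median from −1.11 to 0.87 (without young ANKO 2). Of 1345 calls, 319 held without every ANKO library in turn. With 3 young libraries, each weighs heavily, and the 0 calls of a list do not show that its genes did not change. The cause of these changes was not tested.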

Other observations

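Levels relative to Adipoq in the same library, a choice made after the values were seen, differ among the adipocyte genes. The ratio of Fasn to Adipoq CPM was 67.2, 79.6 and 56.5 in young ANKO 1 to 3 and 18.6, 17.6, 18.2, 16.0 and 16.6 in old ANKO 1 to 5. That of Scd1 was 61.9, 83.4 and 52.6 against 19.2, 21.8, 19, 11.7 and 13.5, and that of Cfd 4.38, 2.86 and 3.18 against 0.725, 1.02, 0.84, 0.501 and 0.747. These 3 genes were thus lower per unit of Adipoq in every old ANKO library than in any young ANKO one. In young and old control fat the Fasn ratio was 12 to 29.6 and 2.21 to 35.2, that of Scd1 16 to 32.6 and 6.16 to 31.7. For Cfd it was 7.43 to 8.19 and 0.594 to 6.86. For Fasn and Scd1 the old ANKO ratios thus lay within the range of old control fat, and the young ANKO ratios lay above every control library. For Plin1 the ratio was 1.34, 1.32 and 1.16 against 1.20, 1.17, 1.13, 1.20 and 1.10, with overlapping ages. The leptin ratio was 0.171, 0.207 and 0.259 against 0.565, 0.802, 0.624, 0.724 and 0.745, higher in every old library. For mt-Nd4, a mitochondrial gene not confined to adipocytes, it was 6.56, 6.92 and 6.03 against 9.26, 7.77, 8.95, 6.05 and 11.9. The ages overlapped in old ANKO 4 alone. CPM is not divided by gene length, so each ratio is compared between libraries only, and no test was run on these ratios.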
